A study of Mus musculus with 12 samples.

Results

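Messenger RNA of 4T1 cells, an established mouse line of triple-negative mammary carcinoma, was compared between 3 PBRM1 knockout (KO) libraries and 3 control libraries, all from cells with genotype as the only labelled difference and with no TGFβ1 (0 ng/ml). These are 6 of the 12 libraries of the series. The other 6 come from the same control and PBRM1 KO cells after 4 days with 5 ng/ml TGFβ1, a secreted cytokine, and enter the filter on low counts, the shared estimate of the spread and the comparisons with TGFβ1 near the end. The members were the 3 libraries titled as PBRM1 KO at 0 h and the 3 titled as control at 0 h, and every gene of the table was used. The library names carry the tags sgCt and sgPB. The sources used here do not say whether the knockout cells are 1 clone or a pool, nor which exon was edited. All cells were grown in the same medium with fetal bovine serum and lysed after trypsin, and the labels describe 3 biological replicates per group. They do not say whether these were separate days or cultures, so the p-values measure the spread between these libraries.

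PBRM1 (BAF180) is a subunit with several bromodomains that is found in PBAF, 1 form of the SWI/SNF family of chromatin remodelling complexes, together with ARID2, BRD7 and PHF10. SWI/SNF complexes use ATP to move or evict nucleosomes, and PBRM1 is mutated in a share of human tumours, most often of the kidney. Interleukin 1 acts through its receptor and MyD88 on the NF-κB transcription factors, which switch on chemokines, acute phase proteins and the NF-κB cofactor IκBζ. Interferons act through cell-surface receptors on genes for antiviral proteins and antigen presentation.

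The untreated libraries held 9397151 to 11250850 counts, deduplicated by molecular identifier and read from the 3′ end, and 22917 to 23612 genes were detected in each. Levels are given as CPM, the count scaled to the library total. The table held 78317 genes, and 14012 of them had enough counts to be tested. Mitochondrially encoded transcripts took 5.93% to 6.27% of counts in control and 5.79% to 6.87% in PBRM1 KO libraries. In a principal component analysis of the 6 libraries the first component held 33% of the variance and separated control (−18.79 to −11.57) from PBRM1 KO (10.47 to 19.03). Of 7 epithelial markers all were tested, with summed levels of 2920 to 3040 CPM in control and 2730 to 2910 CPM in PBRM1 KO libraries. Of 7 defining leukocyte markers none was tested and Adgre1 was at 0, with sums of 0.271 to 0.745 CPM in control and 0.185 to 0.364 CPM in PBRM1 KO libraries. The 4 endothelial markers summed to 0.276 to 1.48 and 0.364 to 1.02 CPM, and the 5 fibroblast markers to 24.4 to 30.9 and 18.1 to 26.4 CPM. The whole lists had 17 leukocyte genes (6.03 to 6.97 CPM in control and 5.69 to 8.69 CPM in PBRM1 KO, with Cd4, Cd8a, Adgre1 and Cd53 at 0), 8 endothelial genes (40.6 to 43.8 and 37.2 to 39.5 CPM) and 11 fibroblast genes (343 to 391 and 310 to 330 CPM). The sums of the 4 endothelial and of the 5 fibroblast markers overlapped between the groups, and only those of the whole lists were lower without overlap. Of the whole lists 1 endothelial gene and 7 fibroblast genes were tested, and none was called. Among the 7 fibroblast genes 1 lay wholly below control and 1, Pdgfra, wholly above. What part the lower sums of these 2 whole lists have in the results was not tested.

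More of the genes that differed were lower than higher in PBRM1 KO cells. At a Benjamini-Hochberg adjusted p below 0.05 (edgeR quasi-likelihood test, n = 3 per group) 33 genes were lower and 6 higher, which is 0.236% and 0.0428% of the genes tested. Among the 33 were the cytokine genes Il1a and Il1b, the chemokine genes Ccl20, Cxcl1 and Cxcl10, the antimicrobial protein genes Lcn2 and Slpi, and the antigen presentation genes Nlrc5 and H2-D1. Of the 33 lower genes 25 differed by 2-fold or more, with a median log2 fold change of −1.52, and of the 6 higher genes 5 did. In all 39 genes the 3 PBRM1 KO libraries lay on 1 side of the 3 control libraries, while 8.71% of all genes tested lay wholly below and 6.95% wholly above. The 39 were called from these same libraries, so their separation follows from how they were chosen. In these bulk libraries fewer cells that express a gene and less RNA per cell cannot be told apart. At an unadjusted p below 0.05, 611 genes were lower (4.36%) and 454 higher (3.24%).

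**Figure D1:**
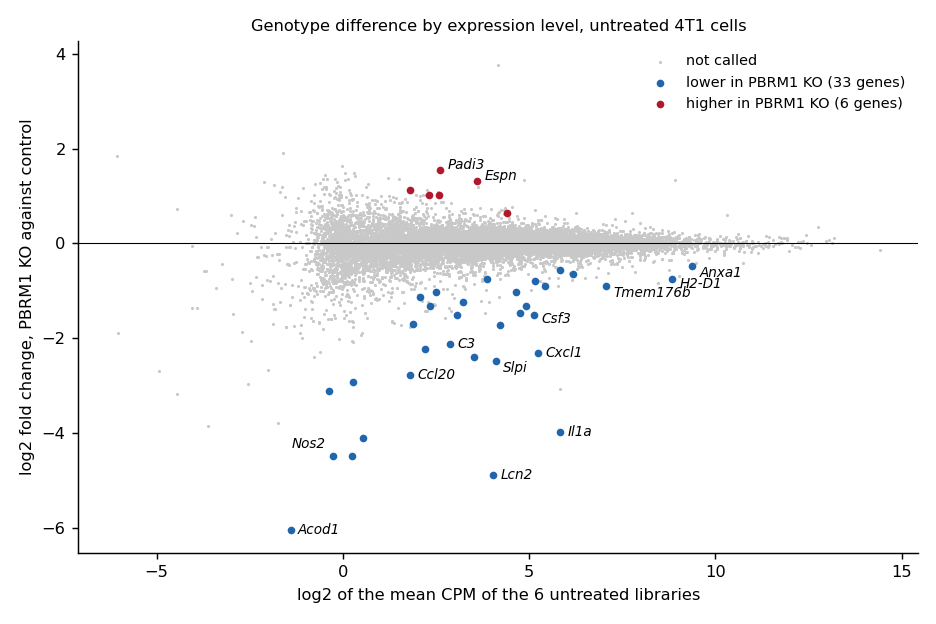
Each point is 1 of the 14012 genes tested, with the log2 of its mean CPM over the 6 untreated libraries on the horizontal axis and its log2 fold change, PBRM1 KO against control, on the vertical axis. The 33 genes called lower (blue) reach log2 −6.04 and the 6 called higher (red) reach log2 1.56; grey points were not called. The −6.04 is a fitted value of Acod1, which had 0 counts in the PBRM1 KO libraries and was at least 8.45-fold lower.

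The number of calls depended on the libraries in the fit. A fit to the 6 untreated libraries alone called 101 genes lower (0.753%) and 34 higher (0.254%), among them 32 of the 33 and all 6 of the genes above; Acod1 was not tested there. Among the genes given below as not passing, Anxa8, B2m, Cldn4, Csf1, Cxcl16, Cxcl5, Fas, Ifit1, Ifnar2, Ikbke, Nectin2, Oasl2, Sting1, Tjp3, Vim and Zc3h12a passed in the 6-library fit. Without both TGFβ1 replicate 3 libraries, which enter through the filter on low counts (14260 genes tested) and the spread, 145 genes were lower and 56 higher, among them all 39. Leaving out 1 untreated library at a time gave 8 to 24 lower and 0 to 3 higher genes. The count of lower genes was 14 without control replicate 1, 13 without control replicate 2, 24 without control replicate 3, 9 without PBRM1 KO replicate 1, 23 without PBRM1 KO replicate 2 and 8 without PBRM1 KO replicate 3. The 8 genes called in each of these 6 fits were all lower: Il1a, Neurl3, Lcn2, Tmem176a, Ccl20, Slc4a4, Tmem176b and Nlrc5. None of the 6 higher genes was called in each of them. Every one of the 39 genes kept its direction in all 18 alternatives in which it was tested. The alternatives refit the same libraries, in which none of the 39 overlaps between the groups, so a kept direction was nearly fixed in advance.

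**Figure D2:**
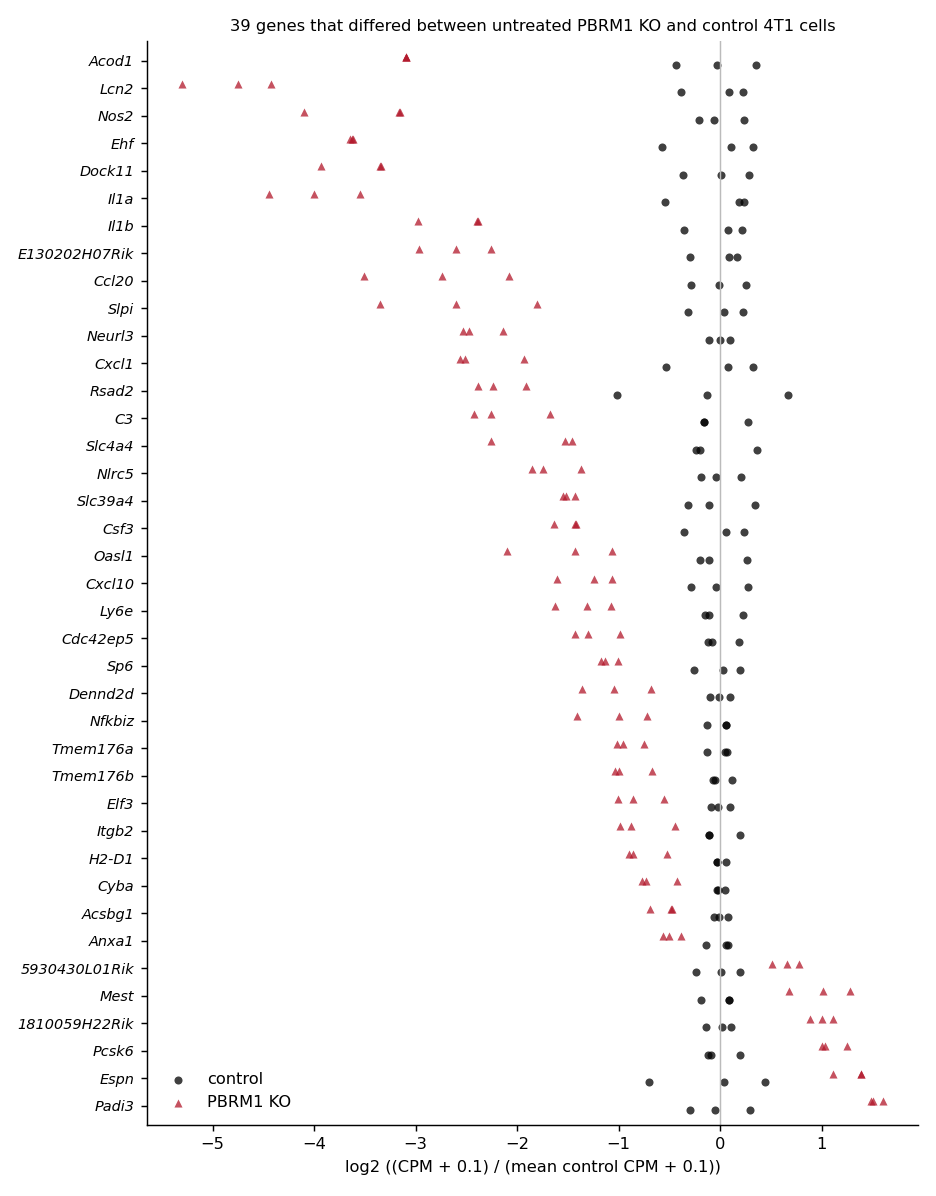
Each row is 1 of the 39 called genes and each symbol 1 untreated library, placed by the log2 of its CPM plus 0.1 over the mean control CPM plus 0.1. Black circles are control and red triangles PBRM1 KO libraries. In no row do the 2 kinds of symbol overlap, which follows from how the genes were chosen.

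Both interleukin 1 genes were lower. Il1a, which encodes interleukin 1α, a cytokine that can also signal when released from damaged cells, was at 73.1, 126 and 122 CPM in control and at 4.8, 6.55 and 9.06 CPM in PBRM1 KO libraries. The highest PBRM1 KO library stood far below the lowest control library, and Il1a was 15.8-fold lower (log2 −3.98 ± 0.28 (SE), adjusted p = 3.16e-05). Il1b, which encodes the secreted interleukin 1β, was a low transcript, at 1.63, 1.47 and 1.06 CPM in control and at 0.0889, 0.182 and 0.185 CPM in PBRM1 KO libraries. It fell by log2 −3.11 ± 0.49 (adjusted p = 0.0184). In RefSeq (GRCm38.p6) both genes lie close together on chromosome 2 and an antisense gene, Il1bos, overlaps Il1b; the sources used here do not give the strand setting of the counting. Of 20 tested genes of the interleukin 1 and Toll-like receptor system these 2 fell and 0 rose, and the median was log2 −0.12, against −0.00 over all genes tested. Il1b lost its call when any of the 6 libraries except control replicate 3 was left out (adjusted p = 0.0668 to 0.109).

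Among acute phase and antimicrobial proteins Lcn2 and Slpi fell. Lcn2, lipocalin 2, a secreted protein that binds bacterial siderophores, was at 24.4, 37.4 and 33.8 CPM in control libraries and at 0.711, 1.09 and 1.39 CPM in PBRM1 KO libraries. It was 29.8-fold lower (log2 −4.90 ± 0.40, adjusted p = 6.08e-05), and no fit that left out a library lost it. Slpi, an inhibitor of neutrophil elastase, was at 23.3, 34.1 and 29.9 CPM in control and at 2.75, 8.28 and 4.72 CPM in PBRM1 KO libraries. It was 5.56-fold lower (log2 −2.47 ± 0.46, adjusted p = 0.0389). Of 6 tested genes in this list 2 fell and 0 rose, with a median of log2 −0.89; most of its 29 genes were too low to test. C3, the central complement protein, was at 14.4, 10.6 and 10.6 CPM in control and at 2.13, 3.64 and 2.40 CPM in PBRM1 KO libraries, 4.35-fold lower (log2 −2.12 ± 0.33, adjusted p = 0.0184). It was the 1 call among 7 tested complement genes, whose median was log2 −0.00. Slpi lost its call without any 1 of the 6 libraries (adjusted p = 0.0601 to 0.249), with limma-voom (adjusted p = 0.0664), with the robust quasi-likelihood fit (adjusted p = 0.123) and among genes of at least 10 CPM (adjusted p = 0.0559). C3 lost it without control replicate 1 or 2 or PBRM1 KO replicate 1 or 3 (adjusted p = 0.0541 to 0.124).

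Enzymes that make itaconate, nitric oxide and superoxide included 3 called genes, all lower. Acod1 makes the metabolite itaconate, best known from activated macrophages. It was at 0.994, 0.737 and 0.532 CPM in control libraries and was not counted in any PBRM1 KO library, 24 counts against 0. With a floor of 3 counts over the group it was at least 8.45-fold lower (adjusted p = 0.0198). Acod1 entered the tests through the control libraries with TGFβ1, where it is high, and was not tested with the untreated libraries alone. Nos2, the inducible nitric oxide synthase, was at 1.54, 1.38 and 1.92 CPM in control and at 0, 0.0910 and 0.0925 CPM in PBRM1 KO libraries. The ratio of its 50 to 2 counts, scaled for library totals, was 26.4 (exact 95% interval 6.93 to 224, counting error only; adjusted p = 0.00863). Cyba, the membrane subunit p22phox shared by several NADPH oxidases, was at 87.0, 91.3 and 87.5 CPM in control and at 52.1, 65.8 and 53.3 CPM in PBRM1 KO libraries. Its fall was smaller, at log2 −0.64 ± 0.11 (adjusted p = 0.0295). The 11 tested genes of this list, Acod1 among them, had a median of log2 −0.58. Nos2 lost its call without PBRM1 KO replicate 1 or 3 (adjusted p = 0.0571 to 0.0651), Acod1 without any library except control replicate 3 (adjusted p = 0.0668 to 0.104) and Cyba without any except PBRM1 KO replicate 2 (adjusted p = 0.0767 to 0.19).

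Among chemokines 3 genes fell. Before their values, the promoters of 3 chemokine genes and of Neurl3 and Rsad2, described below, are printed as examples that hold 1 or both of 2 motifs linked to these pathways near the start. They are the 250 bases before the start in RefSeq (GRCm38.p6, not the build of the counts), on the strand of the gene, for Ccl20 (chr1:83116516-83116765, + strand), Cxcl1 (chr5:90890995-90891244, + strand), Cxcl10 (chr5:92348890-92349139, − strand), Neurl3 (chr1:36273426-36273675, − strand) and Rsad2 (chr12:26456453-26456702, − strand). Capitals mark matches, on either strand, to the κB consensus bound by NF-κB or to the interferon-stimulated response element (ISRE), searched as TTTC, any 2 bases and TTTC. No κB match overlaps an ISRE.
Ccl20: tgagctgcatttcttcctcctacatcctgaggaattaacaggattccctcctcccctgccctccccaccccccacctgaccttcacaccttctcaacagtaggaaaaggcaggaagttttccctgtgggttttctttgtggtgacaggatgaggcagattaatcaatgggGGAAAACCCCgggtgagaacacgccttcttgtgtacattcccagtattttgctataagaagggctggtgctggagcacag
Cxcl1: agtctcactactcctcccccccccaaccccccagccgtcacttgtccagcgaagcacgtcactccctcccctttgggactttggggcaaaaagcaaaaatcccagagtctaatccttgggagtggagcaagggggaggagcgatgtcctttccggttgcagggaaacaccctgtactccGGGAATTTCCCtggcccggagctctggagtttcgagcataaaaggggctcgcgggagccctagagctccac
Cxcl10: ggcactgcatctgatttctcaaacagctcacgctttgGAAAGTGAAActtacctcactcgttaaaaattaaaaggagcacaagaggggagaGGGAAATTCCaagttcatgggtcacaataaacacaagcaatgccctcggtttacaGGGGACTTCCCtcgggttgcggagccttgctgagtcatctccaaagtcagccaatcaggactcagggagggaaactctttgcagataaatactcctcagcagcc
Neurl3: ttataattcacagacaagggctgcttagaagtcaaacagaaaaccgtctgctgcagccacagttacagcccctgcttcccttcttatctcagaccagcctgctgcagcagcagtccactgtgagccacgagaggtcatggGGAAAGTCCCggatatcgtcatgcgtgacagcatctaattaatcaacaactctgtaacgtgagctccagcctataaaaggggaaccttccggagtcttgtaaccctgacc
Rsad2: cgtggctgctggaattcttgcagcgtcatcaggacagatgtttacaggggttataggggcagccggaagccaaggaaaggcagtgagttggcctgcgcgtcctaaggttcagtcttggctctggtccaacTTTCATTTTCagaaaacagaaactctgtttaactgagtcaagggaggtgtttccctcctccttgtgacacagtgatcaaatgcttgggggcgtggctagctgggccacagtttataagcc
In Ccl20 the κB match begins 80 bases before the start, in Neurl3 110 bases before it, and in Cxcl1 2 overlapping matches begin 71 and 70 bases before it. Cxcl10 holds κB matches at 159, 104 and 103 bases and an ISRE at 213 bases before its start, and Rsad2 holds an ISRE at 120 bases. Promoters were found for 23 of the 33 lower genes. Of these, 10 (43.5%) held a κB match in the 250 bases and 2 (8.70%) an ISRE, against 10.8% and 3.17% of the 9119 tested genes with a promoter in the table. The κB matches were in Acsbg1, Ccl20, Cxcl1, Cxcl10, Elf3, H2-D1, Neurl3, Oasl1, Tmem176a and Tmem176b, the last 2 of which share a stretch between divergent starts. In 12 of the 23, Il1a, Il1b, Lcn2, Slpi, C3 and Acod1 among them, neither motif was found. Of 5 higher genes with a promoter 1 held a κB match (Espn, 20%) and 0 an ISRE. Genes with several listed starts were counted once, and a match is a description of the sequence only.

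Ccl20, the ligand of CCR6, was at 4.97, 7.28 and 6.07 CPM in control and at 0.444, 1.36 and 0.832 CPM in PBRM1 KO libraries, 6.89-fold lower (log2 −2.78 ± 0.32, adjusted p = 0.00169). Cxcl1, a ligand of CXCR2 that draws neutrophils, was at 43.5, 78.8 and 66.6 CPM in control and at 10.9, 16.5 and 10.5 CPM in PBRM1 KO libraries, 4.99-fold lower (log2 −2.32 ± 0.41, adjusted p = 0.0334). Cxcl10, a ligand of CXCR3 and an interferon target, was at 6.96, 8.66 and 5.85 CPM in control and at 3.378, 2.27 and 2.96 CPM in PBRM1 KO libraries (log2 −1.32 ± 0.22, adjusted p = 0.0259). These 3 fell and 0 rose among 11 tested chemokines, whose median was log2 −1.06. In 9 of the 11 (81.8%) every PBRM1 KO library lay below every control library, against 8.71% of all genes tested. Ccl2, 1 of these 9, was not tested with the 6 untreated libraries alone, so it passed the filter only with the TGFβ1 libraries included. Cxcl5, another CXCR2 ligand, was among the 8 that were not called: it was at 76.7, 129 and 97.3 CPM in control and at 11.4, 13.2 and 11.3 CPM in PBRM1 KO libraries. Its log2 fold change was −3.08 ± 0.66 with an adjusted p of 0.0839, and with the 6 untreated libraries alone the adjusted p was 5e-06. In the control libraries with TGFβ1, which share in the estimate of the spread, Cxcl5 was at 8.53, 3.53 and 50.1 CPM. Cxcl16 (log2 −0.73 ± 0.17, adjusted p = 0.12), Ccl5 (−0.96 ± 0.19, adjusted p = 0.0659) and Ccl2 (−1.06 ± 0.49, adjusted p = 0.65) did not pass either. Cxcl5, Cxcl16 and Ccl5 were named after their values were seen. Cxcl1 lost its call without any 1 library (adjusted p = 0.0504 to 0.23), with limma-voom (0.0504), with the robust fit (0.114) and at 10 CPM or more (0.0526). Cxcl10 lost it without any library except control replicate 3 (adjusted p = 0.076 to 0.143).

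Colony-stimulating factors went the same way for 1 member. Csf3, which encodes the granulocyte factor G-CSF that 4T1 tumours are known to secrete, was at 40.3, 60.6 and 53.5 CPM in control and at 16.4, 19.1 and 19.1 CPM in PBRM1 KO libraries. It was 2.83-fold lower (log2 −1.50 ± 0.21, adjusted p = 0.00746) and was the 1 call among 13 tested cytokine and colony-stimulating factor genes, whose median was log2 −0.12. Csf1, the macrophage factor, was at 139, 147 and 123.2 CPM in control and at 92.2, 96.5 and 97.5 CPM in PBRM1 KO libraries and did not pass (log2 −0.52 ± 0.11, adjusted p = 0.0841). Csf3 lost its call without PBRM1 KO replicate 1 or 3 (adjusted p = 0.0571 to 0.0728).

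**Figure D3:**
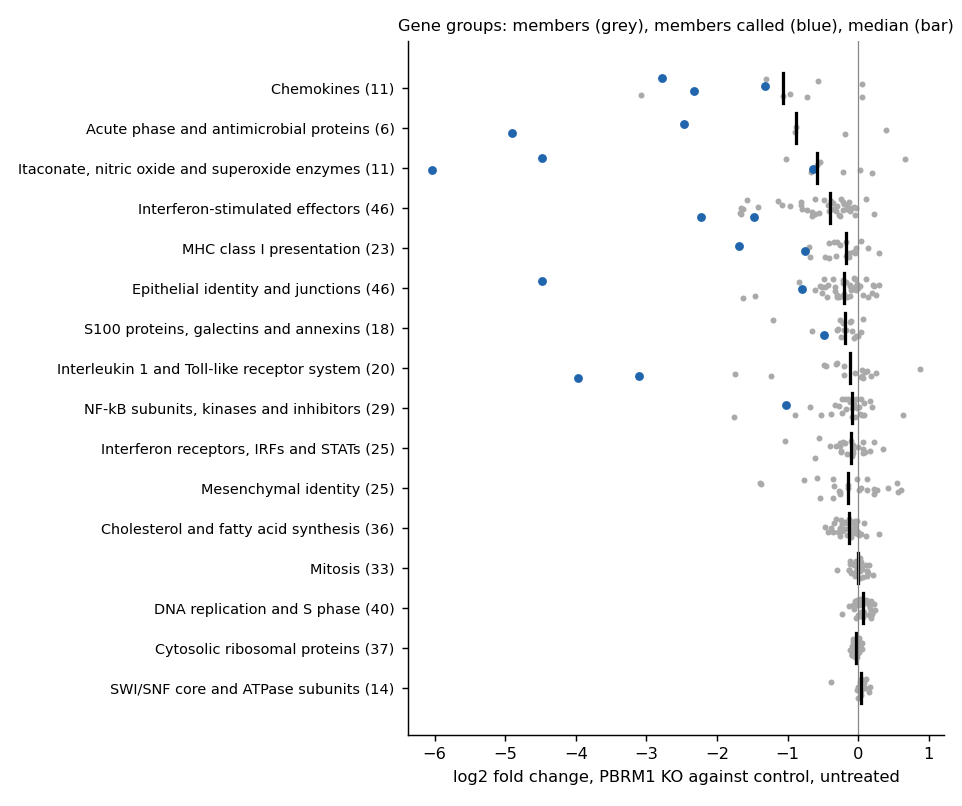
Each point is 1 tested gene of the named list, placed by its log2 fold change, PBRM1 KO against control; blue points were called, grey points were not, black bars are medians and the number of genes stands in brackets. Of the lists shown chemokines have the lowest median at −1.06, and mitosis genes, with a median of −0.01, show no calls.

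The transcripts of the NF-κB subunits themselves did not pass the test. Nfkbiz, which encodes the NF-κB cofactor IκBζ, was the 1 call among 29 tested subunits, kinases and inhibitors, whose median was log2 −0.09. It was at 34.9, 34.8 and 30.5 CPM in control and at 12.5, 20.3 and 16.7 CPM in PBRM1 KO libraries (log2 −1.02 ± 0.16, adjusted p = 0.0186). Nfkb1, Nfkb2, Rela and Relb, which encode the DNA-binding subunits p105, p100, p65 and RelB, had log2 fold changes of −0.04 ± 0.09, −0.03 ± 0.09, 0.01 ± 0.08 and 0.08 ± 0.14. For each of these 4 the control and PBRM1 KO libraries overlapped. Nfkbia, the inhibitor IκBα, was at log2 −0.27 ± 0.16 (adjusted p = 0.822), and Ikbke, the kinase IKKε, at −0.89 ± 0.18 (adjusted p = 0.0619). Zc3h12a, the ribonuclease regnase-1, which degrades cytokine transcripts, was at log2 −1.58 ± 0.34 (adjusted p = 0.0841). Rela, Ikbke and Zc3h12a were named after their values were seen. Of the 29 genes in the list 20 (69%) were below 0, against 50.8% of all genes tested. Wholly below control lay 7 (24.1%), against 8.71% of all genes tested. Nfkbiz lost its call without control replicate 1 or 2 or PBRM1 KO replicate 1 or 3 (adjusted p = 0.076 to 0.118). Of 14 tested TNF receptor family genes none was called; Fas was at log2 −1.36 ± 0.34 (adjusted p = 0.164) and Tnfrsf11a at 1.64 ± 0.37 (adjusted p = 0.1).

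Among interferon-stimulated effectors 2 of 46 tested genes fell and 0 rose. Rsad2, the antiviral enzyme viperin, was at 12.2, 7.002 and 3.73 CPM in control and at 1.96, 1.55 and 1.39 CPM in PBRM1 KO libraries. The control libraries spread widely, yet the lowest stood above all PBRM1 KO libraries (log2 −2.23 ± 0.36, adjusted p = 0.0195). Oasl1, an OAS-like protein that represses translation of IRF7, was at 47.4, 36.6 and 34.5 CPM in control and at 14.6, 18.8 and 9.15 CPM in PBRM1 KO libraries (log2 −1.48 ± 0.26, adjusted p = 0.03). Of the 46 genes 44 had a log2 fold change below 0, with a median of −0.40, against 7125 below 0 of the 14012 genes tested. Wholly below control lay 13 of the 46 (28.3%), against 8.71% of all genes tested. Genes that did not pass included Ifit1 (log2 −1.42 ± 0.39, adjusted p = 0.229), Oas3 (−1.66 ± 0.44, adjusted p = 0.216), Oasl2 (−1.13 ± 0.49, adjusted p = 0.61) and the ubiquitin-like Isg15 (−0.79 ± 0.30, adjusted p = 0.529). Rsad2 lost its call without any library except control replicate 3 (adjusted p = 0.0504 to 0.131) and with limma-voom (adjusted p = 0.0699), and Oasl1 without any library except PBRM1 KO replicate 2 (adjusted p = 0.0778 to 0.142).

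The receptors and transcription factors of the interferon pathway held no calls among 25 tested genes, with a median of log2 −0.10. Of the 25, 18 (72%) were below 0, against 50.8% of all genes tested. Wholly below control lay 6 (24%), against 8.71% of all genes tested. Stat2 (log2 −0.61 ± 0.19, adjusted p = 0.349), Irf9 (−0.40 ± 0.33, adjusted p = 0.91), Irf1 (−0.15 ± 0.25, adjusted p = 0.975) and Irf7 (−1.03 ± 0.58, adjusted p = 0.801) did not pass. The type I interferon receptor chain gene Ifnar2 was at 29.6, 29.9 and 27.0 CPM in control and at 17.9, 20.8 and 19.97 CPM in PBRM1 KO libraries (log2 −0.56 ± 0.12, adjusted p = 0.0722). Sting1, the adaptor for cytosolic DNA sensing, was at log2 −0.71 ± 0.15 (adjusted p = 0.0723). The 6-library fit gave Ifnar2 an adjusted p of 0.0241 and Sting1 one of 0.027. Ifit1, Oas3, Oasl2, Isg15, Irf9 and Sting1 were named after their values were seen.

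In MHC class I presentation 2 of 23 tested genes fell and 0 rose, with a median of log2 −0.18. Of the 23, 20 (87%) were below 0, against 50.8% of all genes tested. Wholly below control lay 7 (30.4%), against 8.71% of all genes tested. Nlrc5 encodes the transactivator of MHC class I genes. It was at 4.88, 6.45 and 5.43 CPM in control and at 1.60, 2.09 and 1.48 CPM in PBRM1 KO libraries, 3.23-fold lower (log2 −1.69 ± 0.21, adjusted p = 0.00337), and was called without each library in turn. H2-D1, a class I heavy chain, was at 561, 596 and 560 CPM in control and at 308, 397 and 316 CPM in PBRM1 KO libraries (log2 −0.75 ± 0.13, adjusted p = 0.0334). It had fractional counts in 11 of 12 libraries; class I heavy chain genes are close copies of each other, and how the counting split reads between them is not given in the sources used here, so its value is uncertain. B2m, the class I light chain, was at 556, 722 and 667 CPM in control and at 337, 459 and 406 CPM in PBRM1 KO libraries and did not pass (log2 −0.70 ± 0.15, adjusted p = 0.0859; 0.0224 with the 6 untreated libraries alone). The heavy chain gene H2-K1, with fractional counts in 10 libraries, was at log2 −0.41 ± 0.14 (adjusted p = 0.435) and the peptide transporter gene Tap1 at −0.30 ± 0.26 (adjusted p = 0.92); both were named after their values were seen. H2-D1 lost its call without any library except PBRM1 KO replicate 2 (adjusted p = 0.0888 to 0.23) and among genes of at least 10 CPM (adjusted p = 0.0527).

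Several surface and membrane proteins linked to immune cells were lower. Ly6e, a GPI-anchored protein of the Ly6 family that restricts coronavirus entry, was at 50.7, 40.1 and 39.05 CPM in control and at 17.4, 20.5 and 13.96 CPM in PBRM1 KO libraries, 2.5-fold lower (log2 −1.32 ± 0.19, adjusted p = 0.0103). It was 1 of 3 Ly6 genes tested. Itgb2, the β2 integrin subunit best known from leukocytes, was at 20.9, 16.9 and 16.9 CPM in control and at 9.15, 13.4 and 9.89 CPM in PBRM1 KO libraries (log2 −0.76 ± 0.14, adjusted p = 0.045), and was the 1 call among 13 integrin subunits. In these libraries the 7 defining leukocyte markers summed to at most 0.745 CPM and the whole list of 17 to at most 8.69 CPM. Which cells held Itgb2 was not tested. Tmem176a and Tmem176b, adjacent genes for a pair of ion channel-like membrane proteins of myeloid and other cells, fell by similar amounts. Tmem176a was at 58.8, 51.0 and 58.0 CPM in control and at 27.6, 33.2 and 28.8 CPM in PBRM1 KO libraries (log2 −0.91 ± 0.09, adjusted p = 0.000676). Tmem176b was at 167, 164 and 188 CPM in control and at 84.3, 109 and 86.5 CPM in PBRM1 KO libraries (log2 −0.90 ± 0.11, adjusted p = 0.00211). For neither gene did the groups overlap, as for every called gene, and both calls stood without each library in turn. Ly6e lost its call without control replicate 1 or PBRM1 KO replicate 1 or 3 (adjusted p = 0.0534 to 0.0902). Itgb2 lost it without any library except PBRM1 KO replicate 2 (adjusted p = 0.127 to 0.273), with library size scaling (0.0582) and at 10 CPM or more (0.0527). Of 12 tested checkpoint and adhesion ligands none was called; Nectin2 was at log2 −0.58 ± 0.11 (adjusted p = 0.0553).

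Epithelial transcription factors of the ETS family were lower, while Cdh1, Epcam, Krt8 and Krt18 did not pass. Ehf was at 2.44, 2.86 and 1.49 CPM in control and at 0.0889, 0.0910 and 0.0925 CPM in PBRM1 KO libraries, 1 count in each of the latter. The ratio of its 72 to 3 counts, scaled for library totals, was 25.3 (exact 95% interval 8.33 to 126, counting error only; adjusted p = 0.0199). Elf3 was at 48.5, 44.9 and 42.8 CPM in control and at 22.5, 30.9 and 24.96 CPM in PBRM1 KO libraries (log2 −0.80 ± 0.13, adjusted p = 0.0186). These 2 fell and 0 rose among 46 tested epithelial identity and junction genes, whose median was log2 −0.19. Wholly below control lay 19 of the 46 (41.3%), against 8.71% of all genes tested. Sp6, a zinc finger factor of epidermal appendages and teeth that is outside the lists, was at 6.60, 5.90 and 4.79 CPM in control and at 2.58, 2.82 and 2.496 CPM in PBRM1 KO libraries (log2 −1.13 ± 0.17, adjusted p = 0.0112). Cdh1, E-cadherin, was at 297, 227 and 230 CPM in control and at 254, 255 and 257 CPM in PBRM1 KO libraries (log2 0.02 ± 0.12, adjusted p = 0.992; −0.04 and −0.02 without control replicates 2 and 3). Epcam (log2 −0.12 ± 0.15), Krt8 (−0.04 ± 0.07), Krt18 (−0.11 ± 0.09), Grhl2 (−0.11 ± 0.12) and Klf5 (0.14 ± 0.17) had adjusted p of 0.901 or more. The tight junction gene Cldn4, with fractional counts in 10 libraries, was at 510, 404 and 439 CPM in control and at 238, 291 and 229 CPM in PBRM1 KO libraries and did not pass (log2 −0.83 ± 0.19, adjusted p = 0.12). The groups did not overlap, and Cldn4 passed with the 6 untreated libraries alone (adjusted p = 0.00238), with DESeq2 (0.00562) and without both TGFβ1 replicate 3 libraries (0.000351). Tjp3 was at log2 −1.64 ± 0.32 (adjusted p = 0.0555). Krt18, Grhl2, Klf5, Cldn4 and Tjp3 were named after their values were seen. Ehf lost its call without any library except control replicate 3 (adjusted p = 0.0763 to 0.131) and with limma-voom (0.0684), Elf3 without any except PBRM1 KO replicate 2 (0.0549 to 0.138), and Sp6 without control replicate 1 or 2 or PBRM1 KO replicate 1 or 3 (0.0588 to 0.102).

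Of 25 tested mesenchymal identity genes none was called, and the median was log2 −0.15. Vim, vimentin, the intermediate filament of mesenchymal cells, was at 944, 1063 and 1002 CPM in control and at 1374, 1533 and 1680 CPM in PBRM1 KO libraries. Every PBRM1 KO library stood above every control library, but the gene did not pass (log2 0.61 ± 0.14, adjusted p = 0.109). With the 6 untreated libraries alone its adjusted p was 0.00518. Tcf4, a helix-loop-helix factor, was at log2 0.42 ± 0.12 (adjusted p = 0.229). Anxa1, annexin A1, a phospholipid-binding protein that limits inflammation, was the 1 call among 18 tested S100, galectin and annexin genes, whose median was log2 −0.19. It was at 697, 798 and 810 CPM in control and at 542, 588 and 522 CPM in PBRM1 KO libraries, the smallest fall among the 33 (log2 −0.48 ± 0.09, adjusted p = 0.0346). Other annexin genes, named after their values were seen, were at log2 −0.17 ± 0.08 (Anxa2), −0.09 ± 0.08 (Anxa3) and −1.21 ± 0.49 (Anxa8), with adjusted p of 0.55 or more. Of the 18 genes in the list 16 (88.9%) had a log2 fold change below 0, against 50.8% of all genes tested. Wholly below control lay 10 of the 18 (55.6%), against 8.71% of all genes tested. Anxa1 lost its call without any library except control replicate 1 (adjusted p = 0.0841 to 0.273).

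Among genes outside the lists were 2 transporters, 1 ubiquitin ligase, and an effector and an exchange factor of the small GTPase CDC42. Slc4a4, the sodium bicarbonate cotransporter NBCe1, was at 36.7, 24.2 and 24.9 CPM in control and at 10.3, 9.83 and 5.92 CPM in PBRM1 KO libraries, 3.29-fold lower (log2 −1.72 ± 0.20, adjusted p = 0.00169). Slc39a4, the zinc importer ZIP4, was at 9.94, 15.8 and 11.5 CPM in control and at 4.18, 4.55 and 4.25 CPM in PBRM1 KO libraries (log2 −1.52 ± 0.22, adjusted p = 0.01). Neurl3, a RING ubiquitin ligase whose promoter is printed above, was at 17.8, 20.5 and 19.1 CPM in control and at 3.378, 4.28 and 3.24 CPM in PBRM1 KO libraries. It was 5.28-fold lower (log2 −2.40 ± 0.19, adjusted p = 6.08e-05), with the libraries of each group close together. Cdc42ep5, an effector of CDC42, was at 12.4, 14.9 and 12.1 CPM in control and at 6.58, 5.28 and 4.81 CPM in PBRM1 KO libraries (log2 −1.24 ± 0.18, adjusted p = 0.01). Dock11, an exchange factor for CDC42, was at 2.80, 3.41 and 2.13 CPM in control and at 0.0889, 0.182 and 0.185 CPM in PBRM1 KO libraries, 17.2-fold lower on the fitted scale (log2 −4.11 ± 0.55, adjusted p = 0.00619). Slc4a4 and Neurl3 were called without each library in turn. Slc39a4 and Dock11 lost the call without PBRM1 KO replicate 1 or 3 (adjusted p = 0.0728 to 0.0836 and 0.0571 to 0.0651), and Cdc42ep5 without control replicate 2 or PBRM1 KO replicate 3 (0.0558 to 0.0836).

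The last 3 lower genes were Dennd2d, E130202H07Rik and Acsbg1. Dennd2d, an exchange factor for RAB GTPases, was at 8.05, 7.46 and 7.02 CPM in control and at 3.58, 4.64 and 2.87 CPM in PBRM1 KO libraries (log2 −1.03 ± 0.18, adjusted p = 0.03). E130202H07Rik, annotated as a long non-coding RNA, was at 2.26, 2.40 and 1.70 CPM in control and at 0.267, 0.364 and 0.185 CPM in PBRM1 KO libraries (log2 −2.92 ± 0.50, adjusted p = 0.0295). Acsbg1, an acyl-CoA synthetase, was at 66.3, 64.1 and 70.5 CPM in control and at 41.4, 47.9 and 48.1 CPM in PBRM1 KO libraries (log2 −0.55 ± 0.10, adjusted p = 0.0317). None of the 3 overlapped between the groups, which follows from how the called genes were chosen. They were named, as were Dock11 and Sp6, after their values were seen. Dennd2d lost its call without any library except PBRM1 KO replicate 2 (adjusted p = 0.0967 to 0.19), and E130202H07Rik and Acsbg1 without any 1 library (0.0704 to 0.19 and 0.0813 to 0.164).

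None of the 6 higher genes was in a list. Espn, espin, which bundles actin filaments in hair cell stereocilia and microvilli, was at 9.49, 4.24 and 7.13 CPM in control and at 18.3, 18.4 and 15.2 CPM in PBRM1 KO libraries, 2.49-fold higher (log2 1.31 ± 0.24, adjusted p = 0.0346). Padi3, a peptidylarginine deiminase of hair follicles that converts arginine to citrulline, was at 3.80, 2.49 and 2.98 CPM in control and at 8.98, 8.83 and 9.62 CPM in PBRM1 KO libraries. It was 2.95-fold higher (log2 1.56 ± 0.25, adjusted p = 0.0195). The related Padi1 (log2 0.36 ± 0.32), Padi2 (−0.09 ± 0.18) and Padi4 (0.15 ± 0.10) had adjusted p of 0.876 or more. Pcsk6, the proprotein convertase PACE4, was at 1.99, 2.49 and 2.02 CPM in control and at 4.44, 4.55 and 5.27 CPM in PBRM1 KO libraries (log2 1.13 ± 0.20, adjusted p = 0.03). Mest, an imprinted gene expressed from the paternal allele, was at 4.16, 4.15 and 3.40 CPM in control and at 6.31, 9.64 and 7.95 CPM in PBRM1 KO libraries (log2 1.02 ± 0.19, adjusted p = 0.0364). The long non-coding RNAs 5930430L01Rik (log2 0.65 ± 0.12, adjusted p = 0.0334) and 1810059H22Rik (1.03 ± 0.19, adjusted p = 0.0383) were the other two, and 1810059H22Rik had fractional counts in 11 libraries. All of these except Espn, and the Padi relatives, were named after their values were seen. Espn lost its call without any library except control replicate 1 (adjusted p = 0.118 to 0.164). Padi3 lost it without any 1 library (0.0504 to 0.129), as did Pcsk6 (0.0843 to 0.189), Mest (0.0523 to 0.188), 5930430L01Rik (0.0504 to 0.167) and 1810059H22Rik (0.0843 to 0.225). With limma-voom Mest had an adjusted p of 0.0555 and 1810059H22Rik one of 0.0504.

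Subunits of the SWI/SNF complexes were not called. Pbrm1 itself was at 328, 261 and 258 CPM in control and at 245, 207 and 222 CPM in PBRM1 KO libraries (log2 −0.33 ± 0.10, adjusted p = 0.349). A count from the 3′ end need not read the edited part, so this value is no check of the knockout. The other PBAF subunit genes Arid2, Brd7 and Phf10 were at log2 0.12 ± 0.10, 0.07 ± 0.10 and −0.11 ± 0.12. Arid1a, the large subunit of canonical BAF, was at log2 0.13 ± 0.09 and Smarca4, the ATPase BRG1, at 0.11 ± 0.11. Over 4 PBAF, 9 BAF and GBAF and 14 core subunits 0 genes passed, with medians of log2 −0.02, 0.03 and 0.03.

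Growth, stress and metabolic lists held no calls. Mitosis (33 tested genes, median log2 −0.01), DNA replication and S phase (40 genes, 0.07), CDK inhibitors and p53 targets (23 genes, −0.04) and cytosolic ribosomal proteins (37 genes, −0.03) had 0 called in either direction. Cdkn1a, the inhibitor p21, was at log2 −0.26 ± 0.26 (adjusted p = 0.936) and Ccnd1, cyclin D1, at 0.20 ± 0.14 (adjusted p = 0.889). Hypoxia and glycolysis (33 genes, −0.11), oxidative phosphorylation (35 genes, −0.05), the unfolded protein response (31 genes, −0.03) and NRF2 targets (29 genes, −0.04) had none either. In cholesterol and fatty acid synthesis 30 of 36 genes (83.3%) had a log2 fold change below 0, with a median of −0.13 and 0 called. Over all genes tested 50.8% were below 0. Wholly below control lay 8.33% of the 36, against 8.71% of all genes tested. Other lists leaned too, with 78.4% of the ribosomal protein genes and 25% of the DNA replication genes below 0. Wholly above control lay 17.5% of the DNA replication genes, against 6.95% of all genes tested. Wholly below control lay 21.2% of the hypoxia and glycolysis genes, 20.7% of the NRF2 targets and 23.3% of the matrix protease genes. For ribosomal protein and oxidative phosphorylation genes the share wholly below was 5.41% and 2.86%. TGFβ ligands, receptors and SMAD targets had 0 called among 28 genes (median −0.02), and Smad7, the inhibitory SMAD, was at 41.0, 33.3 and 39.9 CPM in control and at 39.8, 33.3 and 41.9 CPM in PBRM1 KO libraries. Collagens, laminins and matrix assembly (42 genes, −0.06), matrix proteases (30 genes, −0.16), actin and contractility (27 genes, 0.02), AP-1 factors (21 genes, −0.02) and YAP-TEAD targets (23 genes, 0.00) had 0 called as well.

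The same genotype comparison in cells with TGFβ1 used 6 other libraries, which share the filter on low counts and the estimate of the spread with the comparison above. Acod1 entered the tests through the control libraries with TGFβ1, where it is high (2.59, 2.17 and 2.27 CPM), so it is left out of the next count. The other 32 lower genes were all below 0 there too, against 50.6% of all genes tested, and 30 of them did not overlap between the groups, against 5.61% of all genes. Of these 32, 16 passed with TGFβ1. With Acod1 it was 17 of the 33 (51.5% of the 33 and 60.7% of the 28 genes lower with TGFβ1, which are 0.2% of the genes tested). Without Acod1 the median of the 32 was log2 −1.51 untreated and −1.16 with TGFβ1, and 29 of them had the smaller size with TGFβ1. They had been selected on the untreated values. The 6 higher genes were also above 0 with TGFβ1, and Espn and Padi3 passed (33.3% of the 6 and 20% of the 10 genes higher with TGFβ1, which are 0.0714% of the genes tested).

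**Figure D4:**
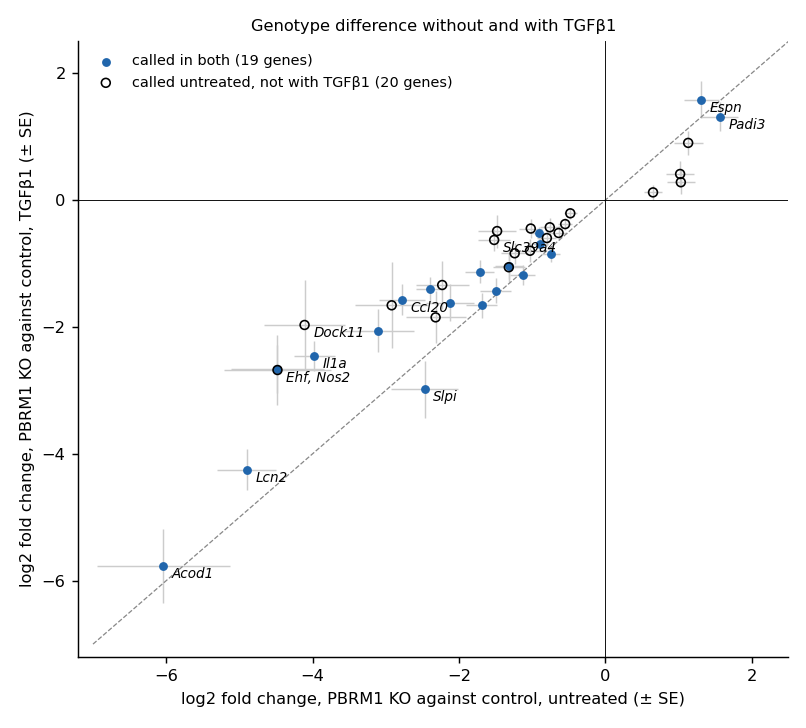
Each point is 1 of the 39 genes called in untreated cells, with its genotype log2 fold change (± SE) untreated on the horizontal and with TGFβ1 on the vertical axis; the dashed line marks equal values. Filled points (19 genes) were called in both comparisons and open points (20 genes) in the untreated one; Il1a lies at −3.98 and −2.46.

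With TGFβ1 Il1a was at 374, 465 and 640 CPM in control and at 92.4, 97.4 and 81.8 CPM in PBRM1 KO libraries (log2 −2.46 ± 0.24, adjusted p = 0.000753). Both groups held more Il1a than their untreated counterparts, and the PBRM1 KO libraries with TGFβ1 stood near the level of the untreated control libraries. Lcn2 was at 56.4, 66.4 and 128 CPM in control and at 4.34, 3.69 and 5.18 CPM in PBRM1 KO libraries (log2 −4.25 ± 0.32, adjusted p = 7e-05). Nlrc5 was at 6.48, 6.33 and 6.53 CPM against 1.51, 2.09 and 2.502 CPM, nearly the same difference as untreated (log2 −1.66 ± 0.20, adjusted p = 0.00568). For Espn both groups held less than when untreated, at 1.51, 2.53 and 2.84 CPM in control and at 8.49, 5.88 and 6.61 CPM in PBRM1 KO libraries (log2 1.58 ± 0.29, adjusted p = 0.0427). Slpi had a larger fitted difference with TGFβ1 (log2 −2.98 ± 0.45) than without (−2.47 ± 0.46).

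**Figure D5:**
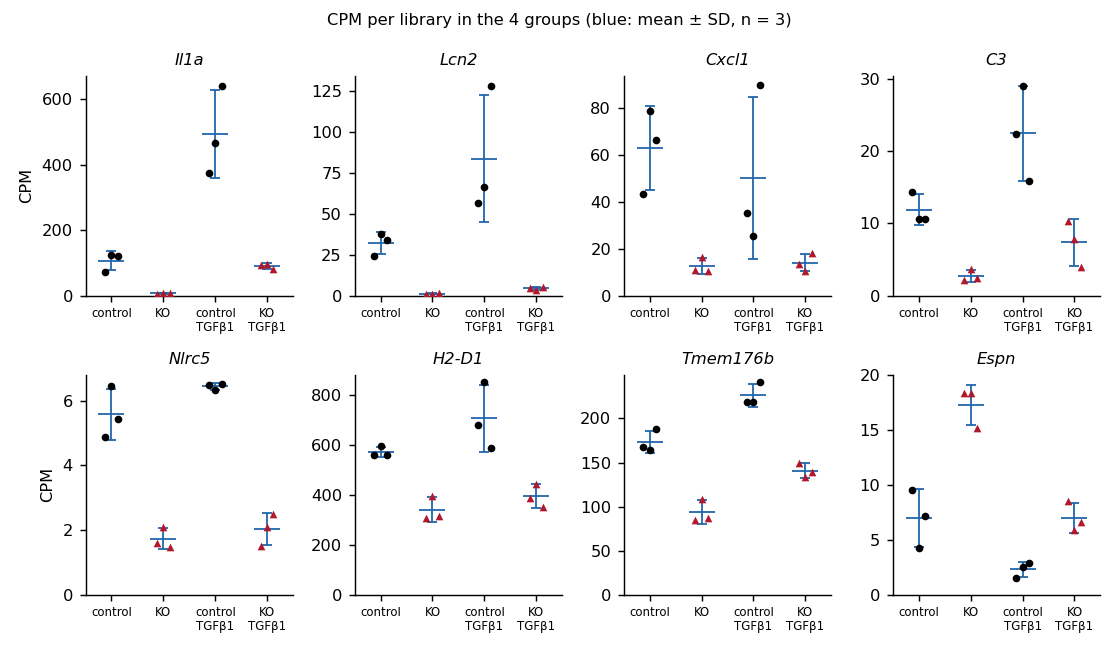
CPM of 8 genes in each library of the 4 groups, control (circles) and PBRM1 KO (triangles) without and with TGFβ1; the blue line and bars are mean ± SD, n = 3, and every axis starts at 0. Il1a, Lcn2, Cxcl1, C3, Nlrc5, H2-D1 and Tmem176b are lower and Espn is higher in PBRM1 KO libraries both without and with TGFβ1.

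Whether a genotype difference changed with TGFβ1 was tested as an interaction. None of the 14012 genes passed (0%), with 247 (1.76%) at an unadjusted p below 0.05, and DESeq2 and limma-voom also called 0. The called genes had been selected on the untreated values, which also enter the interaction, so counts among them cannot show a change with TGFβ1. For 9 of the 33 lower genes the interaction had an unadjusted p below 0.05: Anxa1, Ccl20, Il1a, Neurl3, Nfkbiz, Oasl1, Slc39a4, Slc4a4 and Tmem176a. The same held for 3 of the 6 higher genes, Mest, 5930430L01Rik and 1810059H22Rik, whose genotype difference was smaller with TGFβ1 (log2 0.41 ± 0.21, 0.12 ± 0.12 and 0.28 ± 0.19) and for which the interaction had an adjusted p of 1.00. For Il1a it was log2 1.52 ± 0.36 (unadjusted p = 0.000918, adjusted p = 1.00) and for Neurl3 0.99 ± 0.28 (unadjusted p = 0.00316, adjusted p = 1.00). Oasl1 was at 23.1, 27.1 and 15.3 CPM in control and at 15.95, 19.5 and 11.5 CPM in PBRM1 KO libraries with TGFβ1, which overlapped. Cldn4 was at 616, 557 and 378 CPM in control and at 641, 637 and 384 CPM in PBRM1 KO libraries with TGFβ1 (interaction log2 0.92 ± 0.27, unadjusted p = 0.00481, adjusted p = 1.00).

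In control cells the difference between libraries with TGFβ1 and untreated libraries shares the latter with the genotype comparison. The values therefore stand side by side without a test. No group is labelled as kept for 4 days without TGFβ1, so TGFβ1 and time in culture cannot be told apart. The same holds for the interaction above. Il1a was at log2 2.20 ± 0.24 with TGFβ1 in control cells and at −3.98 ± 0.28 in untreated PBRM1 KO cells. Acod1 was at 1.60 ± 0.33 with TGFβ1 and Csf3 at 0.88 ± 0.19. Slc39a4 was at log2 1.55 ± 0.19 with TGFβ1 and at −1.52 ± 0.22 with PBRM1 KO, and Acsbg1 at 0.88 ± 0.10 and −0.55 ± 0.10. Dock11 was low in both, at −2.09 ± 0.43 with TGFβ1 and −4.11 ± 0.55 with PBRM1 KO, as was Anxa1 at −0.91 ± 0.09 and −0.48 ± 0.09. Espn was at −1.58 ± 0.29 with TGFβ1 and at 1.31 ± 0.24 with PBRM1 KO.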

How the data were processed

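Per the labels' protocols, cDNA was made with a poly(dT) primer and tagmented, and single-end stranded reads of the 3′ end were collapsed by molecular identifier. The submitters' processing notes name fastp 0.24.0, STAR 2.7.11, SAMtools 1.22.1, Subread 2.1.1, featureCounts, edgeR 3.38.4 and mm39; the sources used here give neither annotation nor settings. The authors deposited estimated counts, 91.8% of them whole (tolerance 0), which were rounded for the tests. The deposited CPM equalled count over library total within 4.85e-06 and was recomputed that way. The 92 spike-in entries held 0 counts.

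After filterByExpr and TMM scaling, edgeR 4.0.16 (R 4.3.3) fitted 1 mean per group to all 12 libraries: quasi-likelihood F test, not robust, Benjamini-Hochberg adjusted p below 0.05. The common biological coefficient of variation was 12.5%. Each SE is the size of the log2 fold change divided by √F. The code was tested on simulated data. Replicates correlated at 0.9881 to 0.9919 in log CPM and differed by a chi-square per gene of 3.62 to 11.68, so none was a copy. Where a group held at most 3 counts, the fold is the ratio of summed counts, with an exact 95% interval.

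Named genes are the 15 largest called falls and rises with at least 10 CPM in the higher group, no overlap and a plain symbol; up to 5 called members of each list, or the 2 with the smallest p where none was called; and a panel. A panel gene is not reported here. Others are marked as named after their values were seen. Members, 44 lists (1141 genes) and panel were chosen with earlier results of these data known. The alternatives changed the scaling (RLE, library size), the filter (none, at least 10 CPM), the tool (DESeq2 1.42.0, limma-voom of limma 3.58.1, a robust fit), rounding, the replicate block and the libraries fitted (the 6 untreated alone, no TGFβ1 replicate 3, each untreated library left out).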

Additional observations from a re-analysis of the deposited data

How the results depend on the processing

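The counts of calls moved with the fit. No call changed direction, which was nearly fixed in advance for genes chosen from these same libraries. The 33 lower and 6 higher genes became 191 and 87 with no filter on low counts, 16 and 1 among genes of at least 10 CPM, 81 and 25 with DESeq2, 101 and 34 with the 6 untreated libraries alone, 145 and 56 without both TGFβ1 replicate 3 libraries, and 30 and 4 with limma-voom. RLE scaling, library size scaling, the robust fit and unrounded counts gave 32 to 34 lower and 6 higher genes. Leaving out 1 untreated library gave 8 to 24 lower and 0 to 3 higher. Genes lower both untreated and with TGFβ1 numbered 17, and 87 with no filter, 7 at 10 CPM or more, 37 with DESeq2, 36 without both TGFβ1 replicate 3 libraries and 7 to 13 with 1 library left out. Genes higher in both numbered 2, and 26 with no filter, 0 at 10 CPM or more, 8 with DESeq2, 10 without both TGFβ1 replicate 3 libraries, 1 with limma-voom and 0 to 1 with 1 library left out. With no filter 18 genes had an interaction.

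The replicate number as a block gave 105 lower and 39 higher genes, 56 lower in both and 17 higher in both, and with the 6 untreated libraries alone 243 and 124. Deviations of same-numbered untreated libraries correlated at 0.149, 0.069 and 0.125, and control replicate 2 correlated better with PBRM1 KO replicate 3 (0.085) than with replicate 2, so the numbers were not taken as pairs.

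Of 143 named genes 13 of 2534 values changed sign, in 7 genes near 0 and each with 1 library left out. Over the fits that left out 1 library these genes ran from −0.04 to 0.14 (Cdh1), −0.05 to 0.15 (Brd7), −0.20 to 0.05 (Phf10), −0.12 to 0.02 (Nfkb1), −0.06 to 0.00 (Nfkb2), −0.07 to 0.10 (Smad7) and −0.03 to 0.07 (Rela). Depth limited the lowest genes: Acod1, Nos2 and Ehf held 0, 2 and 3 counts over the PBRM1 KO libraries, so their folds are a bound or have wide intervals. The causes of these shifts were not tested.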
